A study of Rattus norvegicus with 2 samples.

Results

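The keratins Krt8, Krt18, Krt7 and Krt19, vimentin (Vim) and nestin (Nes) were followed in IEC-6, a rat line of small-intestinal epithelium. These 6 genes were chosen by symbol, out of 18256 genes named for either library. The series holds single-cell RNA sequencing of 1 library of cells exposed to 100 ng/mL recombinant rat tumor necrosis factor (TNF) for 72 hours in each of 10 cycles, and of 1 control library whose cells received phosphate-buffered saline. Both came from IEC-6 cells grown in serum-containing medium with insulin, then frozen and thawed before the libraries were made. The TNF-labelled library held 3457 kept cells with 14604393 counts in total, and the control library 5712 kept cells with 24207943 counts. Since each group is 1 library, conditions were not tested against each other, and the preparation of a library, whose titles carry different prefixes, cannot be told apart from the treatment. Of 15 genes that TNF receptor signalling is known to induce, 10 reached 10 counts per 1000000, of which 7 were at least 2-fold lower and 1 at least 2-fold higher under the TNF label. Most of these 10 genes thus ran opposite to the known induction. Whether this comes from the label, the repeated exposure or the freezing and thawing was not tested. Directions below therefore refer to what the label says.

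Intermediate filaments are rope-like polymers that give a cell its mechanical strength, and their make-up is used to tell cell lineages apart. Keratins polymerize only as pairs of a type I and a type II protein. Krt8 (type II) with Krt18 (type I) is the pair of simple epithelia such as the gut lining, where Krt19 (type I) is also found, and Krt7 (type II) is known from ducts and other glandular epithelia. Vimentin is the filament protein of mesenchymal cells and is often made by cultured cells of other origins. Nestin is a large filament protein of progenitor cells in nerve and muscle that needs a partner such as vimentin to polymerize.

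Krt8, Krt18 and Vim are the members the results below turn on, and the 250 bases before their annotated starts are given for reference. They come from the RefSeq promoter table (build GRCr8, where Krt8 lies on the minus strand and Krt18 and Vim on the plus strand), in which 4 of the 6 members were matched. Capitals mark matches, on either strand, to a TATA box (TATAAA), a GC box (GGGCGG), an AP-1 motif (TGANTCA) or an NF-kB motif.
Krt8: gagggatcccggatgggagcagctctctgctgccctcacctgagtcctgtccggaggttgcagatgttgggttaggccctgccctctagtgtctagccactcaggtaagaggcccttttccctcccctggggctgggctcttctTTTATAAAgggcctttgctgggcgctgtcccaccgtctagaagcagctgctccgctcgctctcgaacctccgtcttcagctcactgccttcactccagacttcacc
Krt18: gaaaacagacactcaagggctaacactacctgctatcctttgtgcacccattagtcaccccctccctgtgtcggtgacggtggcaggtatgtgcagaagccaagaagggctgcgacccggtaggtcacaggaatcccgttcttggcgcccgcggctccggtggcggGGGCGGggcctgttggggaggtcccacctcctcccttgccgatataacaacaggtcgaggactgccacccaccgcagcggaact
Vim: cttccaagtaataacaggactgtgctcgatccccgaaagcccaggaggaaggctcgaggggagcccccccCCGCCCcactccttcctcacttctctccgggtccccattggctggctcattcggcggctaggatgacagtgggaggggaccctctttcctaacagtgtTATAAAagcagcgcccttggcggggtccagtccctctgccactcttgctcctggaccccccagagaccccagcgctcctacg
The Krt8 window held a TATA match on each strand that overlap each other, the Krt18 window 1 GC box, and the Vim window 1 TATA match and 1 GC box. Over 33469 promoters of this length, 12.9% held the TATA letters, 30.5% the GC box, 6.34% the AP-1 letters and 1.30% the NF-kB motif. Neither the AP-1 nor the NF-kB motif was found in these 3 windows, which says only that those letters are not there.

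Levels are counts per 1000000 (CPM) of the summed cells of a library, and parentheses hold 95% intervals, for counting error alone. No source used here says whether the deposited counts are of unique molecules. CPM was not divided by gene length, so levels are compared between libraries and clusters and not between genes. A gene was called when it reached 10 CPM in the higher library and differed at least 2-fold, a rule of size and not a test. Of 8550 genes at that level, 8.19% were called lower and 5.27% higher in the TNF-labelled library, 13.5% in either direction. Among the 6 members, 3 reached 10 CPM, 1 of which was called, lower.

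Krt8 (ENSRNOG00000009779), the type II keratin of simple epithelia, was at 2193 CPM under the TNF label (2169 to 2217 by the exact Poisson interval) and at 2456 CPM (2437 to 2476) in the control. The ratio of TNF-labelled over control was 0.893 (0.881 to 0.905, exact conditional binomial). The libraries were close for Krt8, and the direction depended on the scaling: with TMM factors, which moved every log2 ratio up by 0.16 and the median of all genes at 10 CPM from -0.07 to 0.09, the ratio was 1.0005. The RefSeq table lists 1 further copy of Krt8 by name, a pseudogene, which is not named in the deposited gene lists. The count of Krt8 is uncertain to the extent that reads were shared with it.

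Krt18 (ENSRNOG00000047393), the type I partner of Krt8, had 395 counts under the TNF label, or 27.05 CPM (24.4 to 29.9), and 2261 counts in the control, or 93.4 CPM (89.6 to 97.3). It was 3.45-fold lower (3.10 to 3.85) in the TNF-labelled library, and 0.324 of the control level with TMM factors. Its usual partner Krt8 was 1.12-fold lower on the same scale. The RefSeq table lists 7 further copies of Krt18 by name, 6 pseudogenes and Krt18l1, none of which is named in the deposited gene lists, so the count of Krt18 is uncertain to the extent that reads were shared with them.

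Krt19 (ENSRNOG00000014233), a type I keratin of simple and ductal epithelia, had 28 counts under the TNF label and 202 in the control. That is 1.92 CPM (1.27 to 2.77) against 8.34 CPM (7.23 to 9.58), or 4.35-fold lower (2.92 to 6.71). It stayed under 10 CPM in both libraries and so outside the rule for calls. Krt7 (ENSRNOG00000008057) had 4 and 11 counts, 0.274 CPM (0.0746 to 0.701) and 0.454 CPM (0.227 to 0.813), and its ratio of 0.603 had an interval of 0.140 to 2.03.

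Vim (ENSRNOG00000018087) was at 1681 CPM (1660 to 1702) in the TNF-labelled library and 2810 CPM (2789 to 2832) in the control. The ratio was 0.598 (0.589 to 0.607), and 0.670 with TMM factors, so that vimentin was lower in the TNF-labelled library under both scalings without reaching 2-fold. Nes (ENSRNOG00000018681) had 2 counts under the TNF label and 8 in the control, 0.137 CPM (0.0166 to 0.495) and 0.330 CPM (0.143 to 0.651). At this depth a difference in nestin or Krt7 between the libraries was not detectable.

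**Figure D1:**
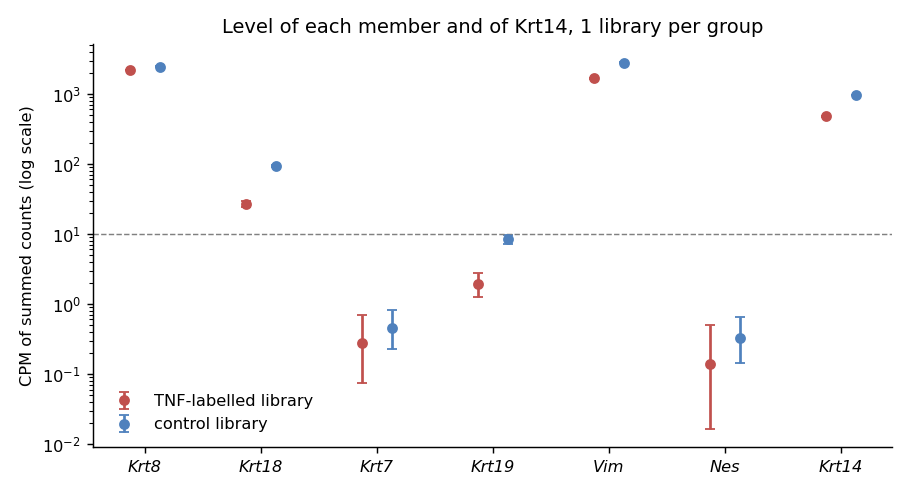
CPM of summed counts (log axis) of the 6 members and of Krt14 in the TNF-labelled library (red) and the control library (blue), 1 library each; bars are exact Poisson 95% intervals and the dashed line is 10 CPM. Krt8 lies close together at 2193 and 2456 CPM, Krt18, Vim and Krt14 are lower in the TNF-labelled library, and Krt7 and Nes lie under 1 CPM in both.

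Of 31 other keratins named in the gene lists, 1 reached 10 CPM, Krt14 (ENSRNOG00000003899), a type I keratin of the basal layer of stratified epithelia. Krt14 was at 477 CPM (466 to 489) in the TNF-labelled library and 969 CPM (957 to 982) in the control, 2.03-fold lower (1.98 to 2.09), and its ratio of 0.492 rose to 0.552 with TMM factors, which ends the call. Krt5, the type II keratin that usually pairs with Krt14, had 0 counts under the TNF label, which at a limit of 3 counts allows up to 0.205 CPM, and 2 in the control. Of all counts assigned to keratins, Krt8 took 80.8% (80.4 to 81.1, exact binomial) in the TNF-labelled library and 69.3% (69.0 to 69.6) in the control. Krt14 took 17.6% (17.2 to 17.95) and 27.3% (27.04 to 27.6), Krt18 0.996% (0.900 to 1.10) and 2.63% (2.53 to 2.74), and Krt19 0.0706% and 0.235%. The share of Krt8 was higher and the shares of the type I keratins Krt14, Krt18 and Krt19 lower in the TNF-labelled library.

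How many cells held each member was measured after every cell was thinned at random to 1700 counts, which left 2728 TNF-labelled and 4753 control cells and left out 729 and 959 shallower ones. Krt8 was found in 95.01% (94.1 to 95.8, exact binomial) of cells under the TNF label and in 96.9% (96.4 to 97.4) in the control, a difference of -1.89 percentage points (-2.90 to -0.943). Unthinned, with medians of 3566 and 2902.5 counts per cell, the shares were 97.5% and 98.1%. Vim was found in 92.3% (91.2 to 93.3) and 98.7% (98.4 to 99.0) of cells, and without thinning in 96.5% and 98.4%. Most cells of both libraries thus held Krt8 and vimentin RNA, and with cells thinned to 2900 counts the shares were 98.4% and 99.3% for Krt8 and 98.7% and 99.9% for Vim.

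For Vim the number of counts per thinned cell differed more than the share of cells. Its mean was 2.85 counts in TNF-labelled and 5.03 in control cells, with medians of 3 and 5 and highest values of 12 and 17. Krt8 had means of 3.73 and 4.36, medians of 3 and 4 and highest values of 18 and 23. The variance over the mean, which is 1 where cells differ by counting alone, was 1.19 and 1.30 for Vim and 1.57 and 1.66 for Krt8. Krt8 was therefore spread more unevenly over the cells than Vim in both libraries, by this measure.

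Krt18 was found in a minority of cells. A count was present in 3.26% (2.63 to 4.00) of cells under the TNF label and in 13.6% (12.7 to 14.6) in the control, a difference of -10.3 percentage points (-11.5 to -9.14), and without thinning in 5.53% and 22.5%. Its mean per thinned cell was 0.0488 and 0.163 counts. At such means most cells hold no count by sampling alone, so cells without a count are not read as lacking Krt18. The variance over the mean was 2.03 under the TNF label and 1.25 in the control. Per cell, at most 6 Krt18 counts were found under the TNF label and 5 in the control.

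Krt19 was found in 7 TNF-labelled cells, 0.257% (0.103 to 0.528), and in 64 control cells, 1.35% (1.04 to 1.72). Without thinning the shares were 0.694% and 2.43%. Krt7 was found in 3 and 6 cells, 0.110% (0.0227 to 0.321) and 0.126% (0.0463 to 0.275), and without thinning in 0.116% and 0.193%. Nes was found in 1 cell of each library, and without thinning in 0.0579% and 0.140% of cells. Both libraries are of 1 cell line with no cell type known to lack these genes, so the share that free RNA alone would give was not measured, and shares this low are not read as expression.

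**Figure D2:**
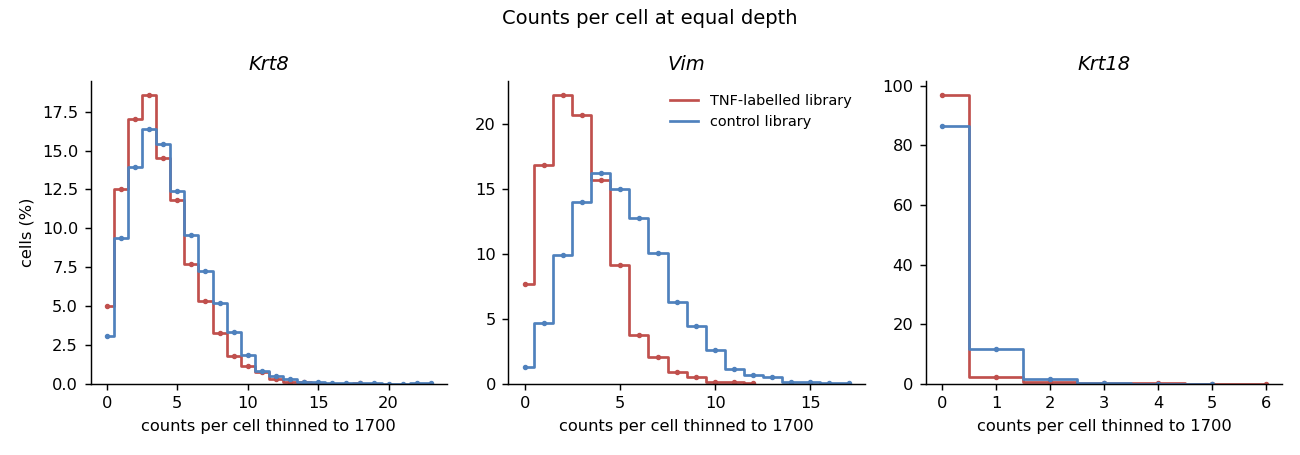
Share of cells (%) by the number of Krt8, Vim and Krt18 counts per cell after thinning to 1700 counts, in 2728 TNF-labelled (red) and 4753 control cells (blue). In the TNF-labelled library the Krt8 curve is shifted somewhat left (mean 3.73 against 4.36) and the Vim curve further (mean 2.85 against 5.03). At this depth most cells of both libraries hold no Krt18 count, which is not read as a lack of Krt18.

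Keratin and vimentin RNA occurred in the same cells. At 1700 counts per cell, 88.0% (86.7 to 89.2) of cells under the TNF label and 95.9% (95.3 to 96.5) in the control held both Vim and at least 1 of the 4 member keratins. Vim without a member keratin was seen in 4.29% (3.56 to 5.12) and 2.82% (2.37 to 3.33) of cells, a member keratin without Vim in 7.18% (6.24 to 8.22) and 1.24% (0.946 to 1.60). Only 14 of 2728 and 1 of 4753 cells held none of them. The share of cells with both Krt8 and Vim, 87.8% and 95.7%, lay next to the product of their separate shares, 87.7% and 95.7%.

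Since nearly all cells held both, the levels were compared as well. A cell was taken as high in Krt8 or Vim when it lay above the median count of its library, and as positive for Krt18 or Krt19 when it held a count. In the control library, 17.7% (16.6 to 18.8) of cells were high in both Krt8 and Vim against a product of 16.3%, a ratio of 1.09 (1.02 to 1.16, from the interval of the observed share). In the TNF-labelled library 16.5% (15.1 to 17.9) were high in both against 15.3%, a ratio of 1.08 (0.990 to 1.18). Spearman's rho over cells was 0.103 in control and 0.049 in TNF-labelled cells. Control cells without a Krt8 count had 4.83 (4.48 to 5.20) Vim counts on average and those with 9 or more Krt8 counts 5.37 (5.13 to 5.62). In TNF-labelled cells the same means were 2.81 (2.53 to 3.11) and 2.92 (2.62 to 3.25). In neither library was the mean Vim count lower in cells with 9 or more Krt8 counts than in cells with none. When the product was taken within each cluster of cells and summed, the ratio was 1.03 (0.970 to 1.10) in the control. In the TNF-labelled library it was 1.06 (0.967 to 1.15). The control interval then included 1. These intervals take the product as fixed, so they do not test whether the genes vary independently.

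Krt8 and Krt18, the classical pair, met more often than the product of their shares in the control, by level. Of 89 TNF-labelled cells with a Krt18 count, 94.4% also held Krt8, against 95.04% of the cells without one. In the control it was 98.6% of 647 cells with a Krt18 count, against 96.64% of those without. Nearly all cells held Krt8 with or without Krt18, so these shares say little about the pair. In the control library, 6.92% (6.22 to 7.68) of cells were high in Krt8 and positive for Krt18 against a product of 5.68%, a ratio of 1.22 (1.09 to 1.35). The mean Krt8 count there was 4.23 (4.17 to 4.30) in cells without Krt18, 5.15 (4.98 to 5.33) in cells with a Krt18 count and 6.36 (5.88 to 6.87) in the 100 cells with 2 or more. In the TNF-labelled library the ratio was 1.03 (0.746 to 1.38), with mean Krt8 counts of 3.72 (3.64 to 3.79) without and 4.06 (3.65 to 4.50) with Krt18. Within clusters, the control ratio was 1.05 (0.944 to 1.17). The excess in the control was thus smaller within clusters than over all its cells, and whether the libraries differ in it was not tested.

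Krt19 was too rare for most pairs. The pairs with Krt19 describe only where its counts lie, since the part of free RNA in them was not measured. In the control library, 39 of 64 cells with a Krt19 count were high in Krt8, a ratio of 1.46 (1.04 to 1.99). It was 1.17 (0.832 to 1.60) within clusters and 1.01 with cells thinned to 1000 counts. Of these 64 cells, 20 held Krt18, or 31.2%, against 13.4% of the cells without Krt19. The ratio to the product was 2.30 (1.40 to 3.54), and 1.64 (1.003 to 2.53) within clusters. With cells thinned to 1000 counts it was 2.31 (0.998 to 4.55). Krt18 and Krt19 are both type I keratins, and their pair was not among those planned for description. Krt18 and Vim gave ratios of 0.968 (0.853 to 1.09) in the control and 1.07 (0.729 to 1.52) in the TNF-labelled library, and Krt19 and Vim 1.08 (0.714 to 1.57) in the control. No cell held both Krt7 and Krt18 or both Krt7 and Krt19, and 1 control cell held both Nes and Vim, counts too low to read. In all, 15 pairs were computed in each library.

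Krt14 was found in more cells than Krt18, and since nearly all cells held Krt8, it also stood beside Krt8 in more of them. With Krt14 added after its level was seen, 53.1% (51.2 to 55.0) of cells under the TNF label and 76.6% (75.4 to 77.8) in the control held a Krt14 count at 1700 counts per cell. Both Krt8 and Krt14 were found in 51.0% (49.1 to 52.9) and 74.5% (73.2 to 75.7) of cells, and Krt8 with none of Krt14, Krt18 and Krt19 in 42.3% (40.5 to 44.2) and 19.7% (18.6 to 20.9). The mean Krt14 count per thinned cell was 0.845 under the TNF label and 1.64 in the control. At such means many cells hold no count by sampling alone, so cells without a count are not read as lacking a type I keratin. Cells high in both Krt14 and Krt8 exceeded the product 1.21-fold (1.09 to 1.34) in the TNF-labelled and 1.15-fold (1.08 to 1.21) in the control. Within clusters these ratios were 1.16 (1.04 to 1.28) and 1.07 (1.02 to 1.13). Krt8, Krt14 and Vim were found together in 47.5% (45.6 to 49.4) and 73.7% (72.5 to 75.0) of cells.

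**Figure D3:**
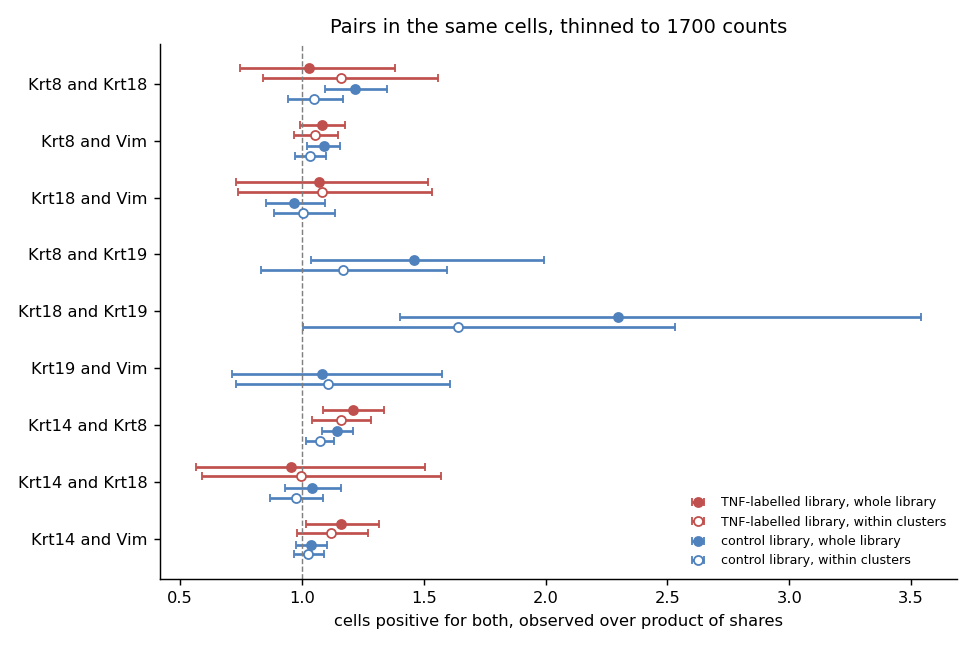
Share of cells positive for both genes of a pair over the product of their separate shares (1 at the dashed line), at 1700 counts per cell, for the TNF-labelled (red) and control library (blue), with the product taken over the library (filled) or within clusters (open); bars are the exact binomial 95% interval of the observed share divided by the product. Pairs expected in under 5 cells, and Krt14 with Krt19, are not drawn. All 4 intervals of Krt14 with Krt8 lie above 1, that of Krt8 with Krt18 does so only over the whole control, and those of Krt18 with Vim include 1.

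Members were next followed across clusters of cells, made within each library from genes without keratins, Vim and Nes, 7 in the TNF-labelled and 6 in the control. Clusters are called by number and leading genes and given no cell type. Of Krt8, Krt18 and Vim, Vim varied least between clusters. Its level ran from 1488 CPM (1449 to 1529) in TNF-labelled cluster 2, led by Kif14, Depdc1b and Top2a of dividing cells, to 1880 CPM (1828 to 1932) in cluster 0. In the control library it ran from 2436 CPM (2373 to 2500) in cluster 5, again led by Top2a, to 3308 CPM (3242 to 3374) in cluster 1. Every control cluster lay above every TNF-labelled cluster for Vim at this resolution. Control cluster 1 is also the shallowest, with a median of 1849 counts per cell and 5.74% mitochondrial counts, and the part of these in its level was not tested.

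Krt8 ran from 1610 CPM (1519 to 1705) in TNF-labelled cluster 5 to 2684 CPM (2622 to 2746) in cluster 0, and from 1692 CPM (1660 to 1724) in control cluster 2 to 3834 CPM (3764 to 3905) in control cluster 4. The ranges of the libraries overlapped. TNF-labelled cluster 0, highest for both Krt8 and Vim, was also the shallowest of its library, with a median of 1991 counts per cell, and the part of depth in its levels was not tested. Control cluster 4, of 541 cells, was led by Tenm3, Fxyd2 and Lgals4, a lectin of differentiated gut epithelium. It was the highest control cluster for Krt8, for Krt18 at 264 CPM (246 to 283), for Krt19 at 25.6 CPM (20.2 to 32.0) and for Krt14 at 1523 CPM (1479 to 1568). Vim stood there at 2552 CPM (2495 to 2610), within the range of the other control clusters. The 541 cells, 9.47% of the control library, held 34.6% of its Krt18 and 37.6% of its Krt19 counts. At equal depth 33.5% (29.3 to 38.0) of them held Krt18, against 5.85% to 17.5% in the other control clusters.

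In the TNF-labelled library the highest Krt18 was in cluster 5, of 164 cells led by Zfp385d, Plxna4a and Nkain4, which stood at 211 CPM (179 to 247) and held 39.0% of the library's Krt18 counts. At equal depth 21.3% (14.8 to 29.2) of its cells held Krt18, against 1.39% to 4.76% in the other TNF-labelled clusters. The 24 cells of cluster 6, led by the interferon-induced genes Ifit3 and Ifit2, stood at 112 CPM (58.0 to 196) from 12 counts, and the remaining clusters between 7.61 and 23.8 CPM. Cluster 5 had the lowest Krt8 of its library at this resolution, so Krt18 and Krt8 peaked in different clusters there and in the same one in the control. At the finer resolution of 0.8, 630 control cells led by Plxna4a and Zfp385d were picked out after their values were seen. They had the lowest control Krt8, 1566 CPM (1520 to 1613). Their Krt18 was at 139 CPM (126 to 154), below only the cluster led by Tenm3 among the control clusters there. In the TNF-labelled library at 0.8, the cluster led by Zfp385d had Krt18 at 206 CPM and Krt8 at 1615 CPM. The lowest Krt8 of that library, 1498 CPM, was then in another cluster, with Krt18 at 7.29 CPM. Without cluster 5 the TNF-labelled library was at 17.4 CPM of Krt18, 5.38-fold below the control library, and with control cluster 4 left out instead the fold was 2.57. The call for Krt18 held in both cases.

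**Figure D4:**
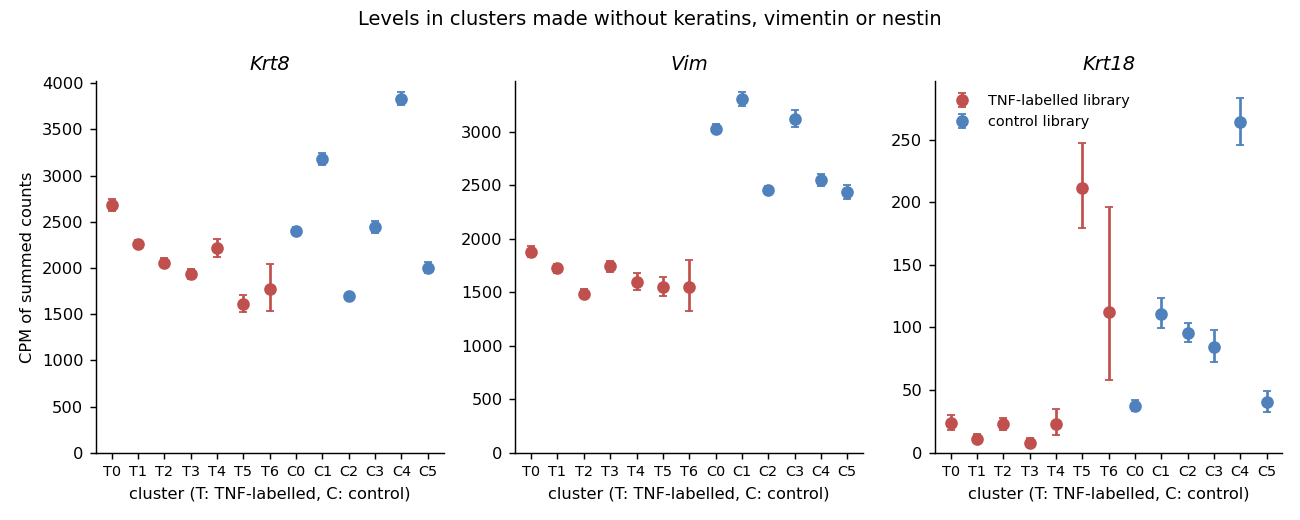
CPM of Krt8, Vim and Krt18 in each cluster of the TNF-labelled (red, T0 to T6) and control library (blue, C0 to C5), with exact Poisson 95% intervals. All control clusters exceed all TNF-labelled clusters for Vim, Krt8 overlaps between the libraries and is highest in C4 at 3834 CPM, and Krt18 stands out in T5 at 211 CPM and C4 at 264 CPM.

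The genes whose counts varied most like a member over cells were ranked by the mean over libraries of Pearson's r of log counts in thinned cells, among 3265 genes (3266 for Krt18) at 50 CPM or more in both libraries. The values are descriptions over 2728 and 4753 cells that share library and depth, and all were weak. For Krt8 they were S100a6 (0.216 in the TNF-labelled and 0.176 in the control), Tmsb4x (0.197 and 0.147), Gapdh (0.139 and 0.182), Krt14 (0.151 and 0.162) and S100a4 (0.155 and 0.157). Vim was at rank 44 for Krt8, with 0.052 and 0.110. For Krt18 they were Tff1 (0.101 and 0.191), Pla2g2a (0.166 and 0.118), Cst6, Lmo7 and Sdc4, and Vim was at rank 2555 with -0.006 and -0.019. For Vim they were S100a6 (0.101 and 0.133), Gapdh, Tmsb4x, LOC100362640 and Fth1, with Krt8 at rank 14. S100a6, Tmsb4x and Gapdh were thus among the first 5 for both Krt8 and Vim, and no gene was among the first 5 for both Krt18 and Vim. Krt8 and Vim counts both fell as the number of genes in a thinned cell rose. Spearman's rho was -0.170 for Krt8 and -0.152 for Vim in TNF-labelled cells, and -0.176 and -0.225 in control cells. The part of this in the ranks and pairs was not tested.

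Genes around the filaments were read from lists. Over all 8550 genes at 10 CPM, 8.19% were called lower and 5.27% higher, shares to set beside each count below. Of 13 other intermediate filament genes found, 4 reached 10 CPM and none was called, and their median log2 ratio was -0.25 beside -0.07 over all 8550 genes. Lmna, a lamin of the nuclear envelope, was at 683 against 953 CPM and Lmnb1, another lamin, at 31.2 against 21.5 CPM, a ratio of 1.45 (1.28 to 1.65). Des, the muscle filament desmin, had 23 and 84 counts, 1.57 and 3.47 CPM. The filaments of nerve cells were at or near 0, with Nefl at 0 and 1, Nefm at 0 and 2 and Nefh at 1 and 1 counts.

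Of 13 filament linkers at 10 CPM, which tie filaments to desmosomes, hemidesmosomes and the cytoskeleton, 1 was called lower and 0 higher, with a median of -0.37. That count is near the 8.19% called lower over all genes. The called gene was Pkp1, a plakophilin of desmosomes, at 1.64 against 15.4 CPM (ratio 0.107, 0.0675 to 0.161). Plec, the linker plectin, was at 194 against 250.5 CPM, Macf1 at 337 against 320 CPM and Dst, dystonin, at 235 against 132 CPM (ratio 1.78, 1.69 to 1.87). Of the 14 kinases known to phosphorylate filament proteins, 3 were called lower and 0 higher, with a median of -0.28. They were Aurkb at 9.93 against 35.1 CPM and Cdk1 at 53.5 against 134 CPM, both kinases of dividing cells, and Mapkapk2 at 36.2 against 75.0 CPM. Rock2 was at 421 against 299.5 CPM and Prkce, a protein kinase C, at 112 against 57.8 CPM (ratio 1.93, 1.80 to 2.08). With TMM factors 1 kinase was called higher and 2 lower.

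Of the 10 regulators of keratin genes at 10 CPM, 4 were called lower and 0 higher, with a median of -0.56. Cdx2, the homeobox factor of gut epithelium, was at 43.1 against 90.0 CPM (ratio 0.479, 0.438 to 0.524) and Sox9 at 4.45 against 10.1 CPM. Grhl1 and Tfap2a had ratios of 0.493 and 0.478, and with TMM factors 1 of the 4 calls stayed. Klf4, a factor of epithelial differentiation, was at 757 against 1172 CPM, and Gata6 at 200.4 against 223 CPM.

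The label of epithelial cells was checked against 16 markers, of which 13 were found and 6 reached 10 CPM. Of these 6, 4 were called lower in the TNF-labelled library and 0 higher, against 8.19% and 5.27% of all genes. Their median was -1.24, and 3 were called lower with TMM factors. Cdh1, E-cadherin, was at 313 against 424 CPM, Tjp1 of tight junctions at 211 against 333 CPM and Lgals4 at 27.6 against 158 CPM (ratio 0.174, 0.157 to 0.193). Epcam, a surface marker of epithelia, had 4 counts in each library, and Vil1 of the brush border 5 and 13. Of 14 mesenchymal markers, 13 were found and 7 reached 10 CPM, 2 of them called lower and 0 higher, with a median of -0.02 that turned to 0.15 with TMM factors. S100a4 was at 3585 against 2674 CPM, Sparc at 1188 against 1202 CPM and Dcn at 103 against 234 CPM, while Pdgfra had 0 and 16 and Pdgfrb 1 and 6 counts. The summed level was 644 against 1175 CPM for the epithelial and 5746 against 5057 CPM for the mesenchymal list. S100a4 decides the latter direction: without it, a check added after seeing the data, the mesenchymal sum was 2160 against 2383 CPM. The epithelial list and Krt18 were thus lower in the same library, and the part of one in the other was not tested.

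**Figure D5:**
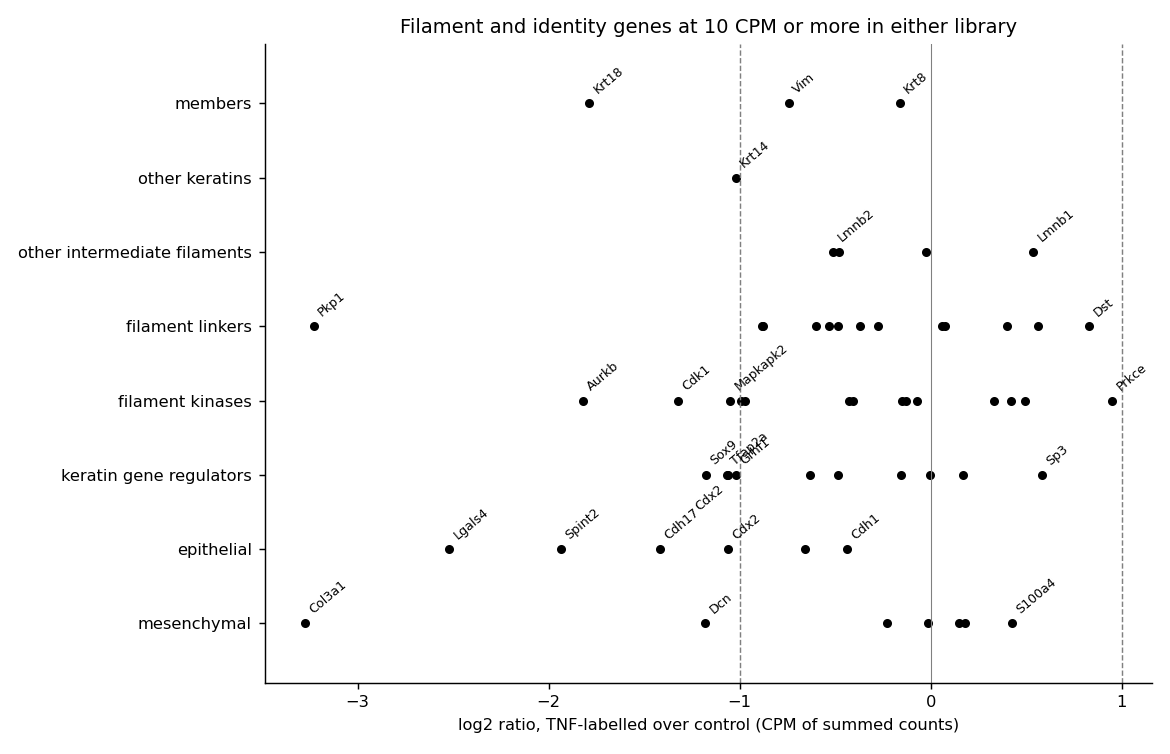
Log2 ratio of TNF-labelled over control CPM for genes at 10 CPM or more in either library, in the members and 7 lists of keratins, other filaments, linkers, kinases, regulators, epithelial and mesenchymal markers, with dashed lines at 2-fold. Points are genes, and the outermost and called ones are named. Krt18, Krt14, Pkp1, Spint2 and Lgals4 lie left of the 2-fold line, Krt8 near 0, and no gene drawn here lies right of the other 2-fold line on the CPM scale.

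Markers of other cells were mostly scarce. Of 6 smooth muscle genes 2 reached 10 CPM and none was called, summed at 77.5 against 76.8 CPM. Of 6 nerve and glia genes found 1 did, Map2, called higher at 94.2 against 34.9 CPM. Of 5 endothelial genes 1 did, Tek, at 127 against 70.5 CPM, not called. Of 6 white blood cell genes 1 did, Cd14, called lower at 36.9 against 102 CPM, and Ptprc, the pan-leukocyte marker, had 2 and 18 counts.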

How the data were processed

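Per library, the authors deposited whole-number counts by gene and cell, with lists of genes and barcodes. The values are raw, by their whole numbers and unequal totals. The build was Rnor_5.0, per the submitters' processing notes. The aligner, the counting tool, the annotation and the barcode filter were not given in the sources used here. Groups were taken from the sample titles, which also start with different prefixes of unknown meaning.

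Kept cells had 500 or more counts, 300 or more genes and mitochondrial counts up to 20%, 3457 of 3457 and 5712 of 5713 barcodes. The libraries share 24 barcodes. A single count equals 0.0685 CPM under the TNF label and 0.0413 CPM in the control. Counts were summed per library, and in ratios a gene at 0 in 1 library was set to a floor of 3 counts (in calls over all genes, any value under 3 counts). Intervals are exact Poisson, conditional binomial or Clopper-Pearson at 95% and cover counting error only. Cells were thinned without replacement to 1700 counts for shares and pairs. Clusters were made with scanpy 1.11.5 and leidenalg 0.10.2 (2000 variable genes, 30 principal components, 15 neighbours, resolution 0.5). No doublet caller was run, and doublets were left in. TMM factors came from edgeR 4.0.16. The ratio and pair computations were tested on simulated data.

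Named genes were the members, the most abundant and most different genes of each list at 10 CPM, other keratins at 10 CPM, the 5 genes most alike to Krt8, Krt18 and Vim, and up to 3 leading genes per cluster. Genes named outside this rule, such as Krt5, Epcam and the nerve filaments, were picked with their values in view. The members and lists were chosen with earlier results of these data known. Alternatives were other scalings, cell filters, depths, draws and cluster resolutions.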

Additional observations from a re-analysis of the deposited data

How the results depend on the processing

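Of 162 recomputed values, 118 kept within the error of the reported one (counts of genes, within 1.5 times) and 44 moved further. No called value changed sign, but calls were lost: with TMM factors Krt14 (0.552) and 3 of 4 lower regulators, while 1 kinase became called higher. The Krt8 ratio became 1.0005 with TMM factors, 0.879 without mitochondrial and ribosomal protein genes, 0.853 as a mean of per-cell CPM and 0.855 in thinned cells. For Vim the same 4 settings gave 0.670, 0.5885, 0.5885 and 0.567. The Krt18 ratio was 0.324 with TMM factors and, in checks chosen after seeing the data, 0.186 without TNF-labelled cluster 5 and 0.389 without control cluster 4. Thinning to 1000 counts gave share differences of -6.12 (Krt18), -0.621 (Krt19) and -12.3 (Vim) percentage points, and thinning to 2900 gave -0.901 (Krt8), -14.7 (Krt18) and -1.22 (Vim). Without thinning, where depth enters both genes, observed over product was 1.64 (TNF-labelled) and 1.56 (control) for Krt8 and Vim, and 1.29 for Krt18 and Vim in the control. In the control it was 1.05 within clusters for Krt8 and Krt18, and 1.01 at 1000 counts for Krt8 and Krt19. Over all genes, TMM factors gave 734 higher and 458 lower, and a minimum of 1 CPM 745 and 1687, against 451 and 700. With TMM factors 61.6% of called genes were higher, against 39.2%. The highest cluster over the lowest was 1.28 (Krt8) and 3.08 (Krt18) at resolution 0.3 in the TNF-labelled library. In the control it was 1.59 (Krt8), 3.05 (Krt18) and 1.22 (Vim) at 0.3, and 2.48 (Krt8) and 1.49 (Vim) at 0.8. Where no value shows it, the cause was not tested. Alternatives were run for 10 of the 15 pairs, and for 11 of these 20 pair and library combinations none was computed because fewer than 5 cells were expected. No paired analysis was possible because each group holds 1 library. Depth limits Krt7 and Nes, with at most 11 counts per library.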

Other observations

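Keratins below 10 CPM differed in direction, and were picked with their values in view. Krt23, a type I keratin known from digestive and glandular tissues, had 103 counts under the TNF label and 29 in the control, 7.05 against 1.20 CPM, a ratio of 5.89 (3.87 to 9.22). Krt42, a type I keratin, was at 1.37 against 4.92 CPM (ratio 0.279, 0.164 to 0.450), and Krt16, a type I keratin of stressed epidermis, had 2 and 31 counts (ratio 0.107, 0.0124 to 0.420). Krt10, of the upper epidermis, was at 2.40 against 2.07 CPM, with an interval of the ratio of 0.731 to 1.82. With the minimum lowered to 1 CPM, 8 of the 31 other keratins passed, 1 at least 2-fold higher and 5 lower. Over all 12306 genes at that minimum, 745 were at least 2-fold higher and 1687 lower.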
